A study of Mus musculus with 3 samples.

Results

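The miRNAs described here are the mature miR-26 and miR-101 strands of the mouse, mmu-miR-26a-5p, mmu-miR-26b-5p, mmu-miR-101a-3p and mmu-miR-101b-3p, written without the species prefix hereafter. They were chosen by name, as miRNAs known to repress Ezh2, and make up 4 of the 1138 mature miRNAs listed for each library. All 4 had reads in all 3 libraries. Small RNAs were sequenced from a shin muscle, the tibialis anterior (TA), of WT C57BL/6 mice. The day 0 library came from muscle without CTX injury, and the other libraries from muscle taken 1 and 3 days after cardiotoxin (CTX) was injected. CTX comes from snake venom and kills myofibers, which then regenerate. The labels give an age of 10 weeks and a dose of 30 mL of 10 mM CTX, which the methods give in μl and μM. The day 0 label carries the same dose, although the study calls the day 0 muscles uninjured. Saline is named as the control agent, but the labels do not say whether the day 0 mice received it.

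Each library is a pool of 4 samples and stands alone for its time point, so there are no replicates, no test was run, and the spread between mice is unknown. The intervals given below are 95% intervals for counting error alone, and PCR copies of 1 molecule are counted as separate reads. What is due to the time after injury and what to the particular mice or library preparation cannot be told apart.

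Ezh2 is the catalytic subunit of Polycomb repressive complex 2 (PRC2), which methylates lysine 27 of histone H3 and keeps genes silent. In myoblasts, PRC2 holds back the genes of the contractile apparatus, and Ezh2 declines as the cells differentiate. miR-26a and miR-101 pair with the 3′ UTR of the Ezh2 mRNA and lower its output, and miR-26a is also known to act on Smad transcription factors downstream of transforming growth factor β. The mRNA of Ezh2 was not measured in these libraries.

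A miRNA recognizes its targets mainly through its seed, bases 2 to 8 from the 5′ end. The 4 mature sequences are shown with the seed in capitals, because the seed is what makes these miRNAs a group and the other bases are what tells them apart in sequencing (RefSeq, GRCm38.p6).
miR-26a-5p: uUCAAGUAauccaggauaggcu
miR-26b-5p: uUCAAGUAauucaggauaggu
miR-101a-3p: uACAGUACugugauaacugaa
miR-101b-3p: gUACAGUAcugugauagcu

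miR-26a-5p and miR-26b-5p share the seed UCAAGUA. Over 21 aligned bases they differ at 2 positions, C11U and C21U, counted from the 5′ end of miR-26a-5p with its base written first. The miR-101 strands carry the same core, but miR-101b-3p begins 1 base earlier, so its bases 2 to 8 read UACAGUA and those of miR-101a-3p read ACAGUAC. Aligned on the shared core, they differ at 1 of 18 bases, A16G in the numbering of miR-101a-3p. How the authors assigned reads that match more than 1 miRNA is not given in the sources used here, so a read trimmed short of the differing base could be counted for either strand of a pair.

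The 5 hairpins that give rise to these strands lie at separate loci. Mir26a-1 (chr9:119031796-119031885, plus strand), Mir26a-2 (chr10:126995530-126995613, plus) and Mir26b (chr1:74394310-74394394, plus) lie in introns of Ctdspl, Ctdsp2 and Ctdsp1, which encode related small phosphatases of the RNA polymerase II tail. Mir26a-2 also overlaps an exon in 2 Ctdsp2 transcripts. Mir101a (chr4:101346945-101347027, minus) lies in an exon of the noncoding RNA E130102H24Rik, and Mir101b (chr19:29135279-29135375, plus) in an intron of Rcl1, a gene of ribosomal RNA processing. Both miR-26a hairpins yield the same miR-26a-5p, so its reads cannot be divided between the loci, whereas the opposite arms differ in sequence.

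In the longest annotated 3′ UTR of Ezh2 (402 bases, GENCODE M21), the letters complementary to the miR-26 seed (TACTTGA) occurred 1 time and those complementary to the miR-101a-3p seed (GTACTGT) 2 times, on the mRNA strand. The letters for miR-101b-3p (TACTGTA) occurred 1 time and overlapped the second of the GTACTGT matches. The stretches that hold them are shown because they are where these miRNAs could pair with Ezh2, with the matching letters in capitals (chromosome 6, minus strand, GRCm38).
Ezh2, miR-26 match, chr6:47530276-47530304: tgaataaagaaTACTTGAacttgttgttg
Ezh2, first miR-101a match, chr6:47530465-47530493: aggaaccttgaGTACTGTgggcaatttag
Ezh2, second miR-101a match, chr6:47530410-47530438: gaatttgcaaaGTACTGTaacagtaattt

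All 4 annotated protein-coding Ezh2 transcripts with a stop codon and a 3′ UTR held all 3 motifs. Among the 15295 genes whose 3′ UTR is at least as long, the first 402 bases held TACTTGA in 2.85%, GTACTGT in 2.71% and TACTGTA in 3.33%. TACTTGA and GTACTGT occurred together in 14 of these genes (0.0915%), Ezh2 among them. Since the members were chosen as known repressors of Ezh2, their matches there are not an independent finding. Of the other PRC2 genes, Suz12 and Jarid2 each held 1 miR-26 match, Eed held 1 GTACTGT match, and Rbbp7 held 1 match to each miR-101 motif, while Ezh1 and Rbbp4 held none of the 3 motifs. These matches were counted over whole 3′ UTRs of up to 2992 bases, and over whole 3′ UTRs the motifs occurred in 9.67%, 9.38% and 12.2% of 21020 genes. These are matches of letters in annotated sequence, and binding was not measured.

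The libraries of days 0, 1 and 3 held 8507580, 6421056 and 9795076 reads, and each count was divided by its library total to give counts per 1000000 reads (CPM). A count of 3 reads, taken as the lowest detectable level, was 0.353, 0.467 and 0.306 CPM. Since CPM is a share of the library, it moves for every miRNA when abundant miRNAs are lost. The 10 most abundant miRNAs of each library held 78.4% of the day 0 reads, 61.6% of the day 1 reads and 64.1% of the day 3 reads. The typical miRNA was therefore set beside each member. Among miRNAs with at least 10 reads in either library, the median log2 fold change against day 0 was 1.28 for day 1 (532 miRNAs) and 1.47 for day 3 (569 miRNAs). Compared with scaling by totals, edgeR's TMM factors shift every log2 fold change by -0.94 on day 1 and -0.93 on day 3, and DESeq2's median-of-ratios factors by -1.04 and -1.12.

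miR-26a-5p was by far the most abundant of the 4, and its level in CPM was highest in uninjured muscle and lowest on day 3. It had 568741, 366764 and 397146 reads on days 0, 1 and 3. These correspond to 66851 CPM (95% interval 66683 to 67019), 57119 CPM (56940 to 57299) and 40545 CPM (40422 to 40669). It ranked 4 among all miRNAs on day 0 and 6 on each of the other days. Against day 0, the log2 fold change of mmu-miR-26a-5p came to -0.23 for day 1 (-0.23 to -0.22) and -0.72 for day 3 (-0.73 to -0.72), neither past a 2-fold change. Under TMM scaling these values were -1.17 and -1.65, and under median-of-ratios scaling -1.27 and -1.84, all past 2-fold. In bulk muscle, fewer cells of a type and less of an miRNA per cell cannot be told apart.

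miR-26b-5p, with the same seed, had a different course, highest on day 1 and lowest on day 3. It had 23878, 30744 and 21358 reads on days 0, 1 and 3, or 2807 CPM (2771 to 2842), 4788 CPM (4735 to 4842) and 2180 CPM (2151 to 2210). Against day 0, the log2 fold change of mmu-miR-26b-5p was 0.77 for day 1 (0.75 to 0.79), but -0.17 under TMM and -0.27 under median-of-ratios scaling, so its direction on day 1 depended on the scaling. On day 3 it was -0.36 (-0.39 to -0.34). Between day 1 and day 3 it was -1.13 (-1.16 to -1.11), a level 2.20 times lower.

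miR-101a-3p was present at a low level that was lower in each later library. Its reads numbered 317, 159 and 155, or 37.3 CPM (33.4 to 41.6), 24.8 CPM (21.2 to 28.9) and 15.8 CPM (13.5 to 18.5) in the order of the days, and none of these intervals overlapped. Against day 0, the log2 fold change of mmu-miR-101a-3p was -0.59 for day 1 (-0.86 to -0.31) and -1.24 for day 3 (-1.51 to -0.96). It was 2.35 times lower on day 3 than on day 0. The interval on day 3 included a 2-fold change, so with library totals and at this depth the call past 2-fold is not firm. Under TMM scaling the values were -1.53 for day 1 and -2.16 for day 3, and under median-of-ratios scaling -1.63 and -2.35.

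miR-101b-3p had 447, 348 and 321 reads. The day 0 level, 52.5 CPM (47.9 to 57.6), and the day 1 level, 54.2 CPM (48.8 to 60.2), did not differ detectably at this depth (log2 fold change 0.04, -0.16 to 0.25). The day 3 level was 32.8 CPM (29.4 to 36.6). Against day 0, the log2 fold change of mmu-miR-101b-3p was -0.68 for day 3 (-0.89 to -0.47). With TMM factors the value for day 1 was -0.90, and with median-of-ratios factors it was also below day 0.

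**Figure D1:**
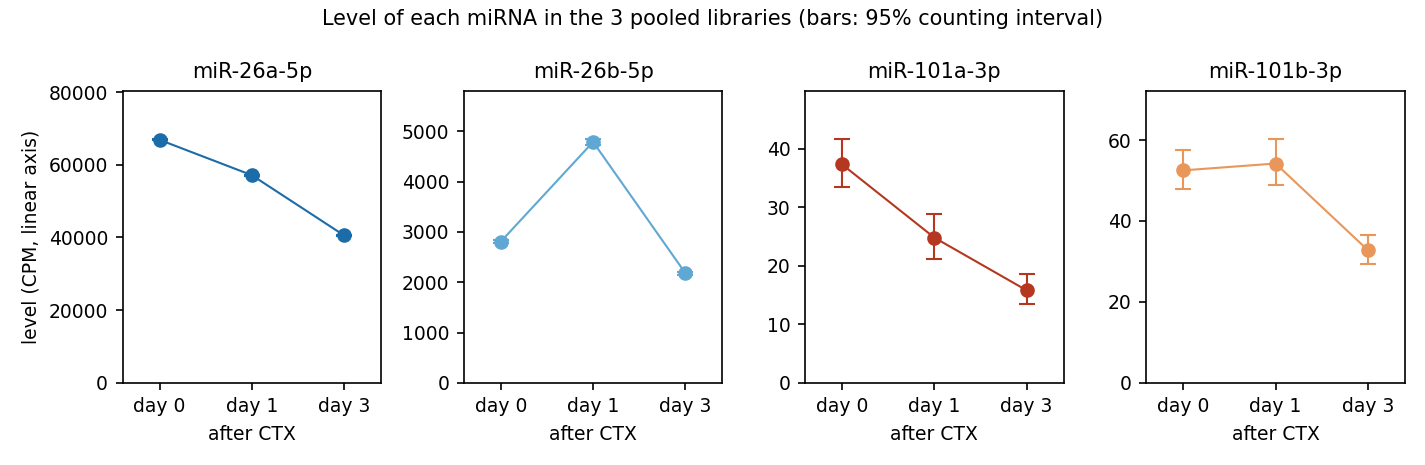
Level of miR-26a-5p, miR-26b-5p, miR-101a-3p and miR-101b-3p in CPM (linear axes from 0, a separate axis for each miRNA) in the 3 pooled libraries, 1 library per time point, with bars for the 95% counting interval, which is hidden by the symbol where reads are many. On this scale miR-26a-5p and miR-101a-3p were lower in each later library, all 4 were lowest on day 3, and miR-26b-5p was highest on day 1, where it was below day 0 with TMM factors.

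In order of level, miR-26a-5p stood above miR-26b-5p, miR-101b-3p and miR-101a-3p in each library, and no neighbours in that order had overlapping counting intervals. The gap between the families was wide. The miR-101 strands together made up 0.129% (0.120 to 0.138), 0.127% (0.117 to 0.139) and 0.114% (0.104 to 0.124) of the reads of the 4 miRNAs, in the order of the days. In the expression values that the authors deposited beside the read counts, the share was larger, at 0.501%, 0.340% and 0.329%. Read counts of different miRNAs also carry the biases of adapter ligation, so this order is one of reads.

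No member was at least 2-fold higher than on day 0 in either injured library, where 55.3% of the 532 miRNAs tested on day 1 and 58.5% of the 569 tested on day 3 were. The number of members at least 2-fold lower was 0 of 4 on day 1, with 12.0% of all miRNAs, and 1 of 4 on day 3 (miR-101a-3p), with 10.0% of all miRNAs. Between the injured libraries, 1 of 4 was at least 2-fold lower on day 3 than on day 1 (miR-26b-5p), with 17.7% of the 583 miRNAs tested, and 0 of 4 were at least 2-fold higher, with 25.0%. The members' median log2 fold change against day 0 was -0.09 for day 1 and -0.70 for day 3, beside 1.28 and 1.47 for all miRNAs. All 4 lay below the median of all miRNAs in each of the 3 comparisons. With a minimum of 1 read in place of 10, this no longer held for miR-26b-5p on day 1 (59.2% of miRNAs lower) or for miR-26a-5p between day 1 and day 3 (54.6% lower). That minimum adds miRNAs with under 3 reads in both libraries, whose counts were set to 3. They all take the same log2 fold change, 0.41 on day 1 and -0.61 between day 1 and day 3. Since these values lie just below those of the members named, the shift reflects that limit and the library totals.

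The order of the miRNAs by fold change does not depend on the factor by which the reads of a library are scaled. On day 1, 17.7% of the miRNAs tested had a lower log2 fold change than miR-101a-3p, 22.6% a lower one than miR-26a-5p, 25.9% than miR-101b-3p and 39.8% than miR-26b-5p. On day 3 these shares were 8.08% for miR-101a-3p, 13.4% for miR-26a-5p, 14.4% for miR-101b-3p and 17.6% for miR-26b-5p. Every member thus stood lower in the order on day 3 than on day 1. The shares depended on the minimum of reads. With a minimum of 1 read they were 11.1% for miR-101a-3p, 14.6% for miR-26a-5p, 18.4% for miR-101b-3p and 59.2% for miR-26b-5p on day 1. The added miRNAs with under 3 reads in both libraries all sit at 0.41, below miR-26b-5p and above the other members. With library totals, 81 of the 508 miRNAs tested on both days (15.9%) were lower than day 0 on both, among them 2 of the 4 members, miR-26a-5p and miR-101a-3p. This number did depend on the scaling, at 177 (34.8%) under TMM and 190 (37.4%) under median-of-ratios scaling, with 4 of 4 members among them.

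**Figure D2:**
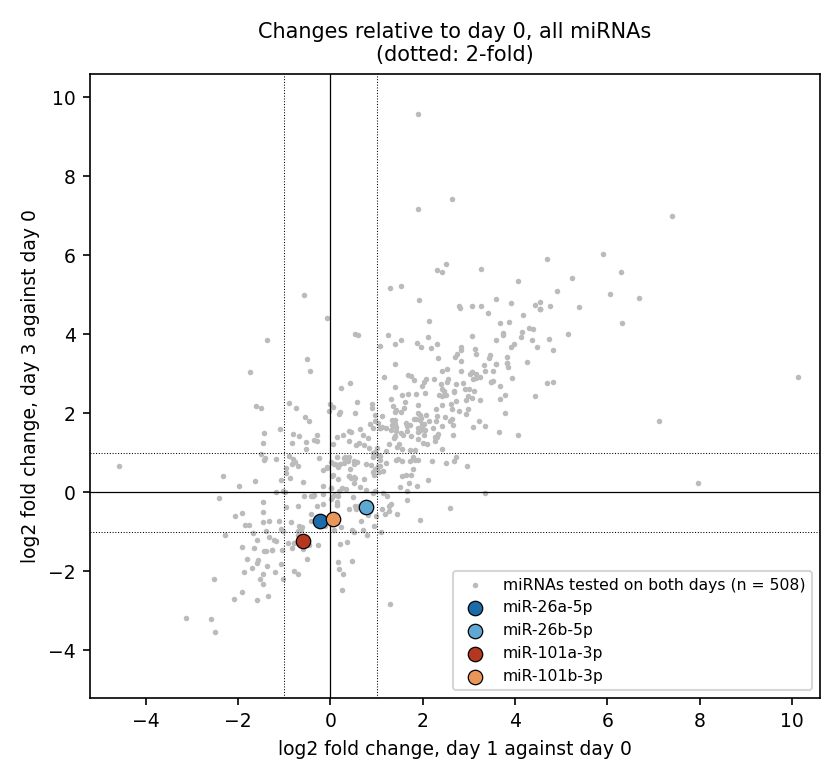
Log2 fold change relative to day 0 on day 1 (horizontal axis) and day 3 (vertical axis) for the 508 miRNAs tested on both days (gray points) and the 4 members (colored points), with reads scaled to library totals and dotted lines at a 2-fold change. The members sit in the lower part of the cloud, with only miR-101a-3p past the 2-fold line, on day 3.

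The direction of these changes was checked under the other scalings. On day 3 all 4 members were below their day 0 level under each scaling tried, from -1.04 to -2.35 for miR-101a-3p, from -0.07 to -1.84 for miR-26a-5p, from -0.48 to -1.80 for miR-101b-3p and from -0.13 to -1.48 for miR-26b-5p on the log2 scale. The values nearest to 0 came from the deposited expression value, taken without scaling to its total. Scaled to its total, it gave -1.56 for miR-101a-3p, -0.58 for miR-26a-5p, -0.99 for miR-101b-3p and -0.65 for miR-26b-5p. With TMM factors 4 of 4 members were at least 2-fold lower on day 3 (22.1% of all miRNAs), 2 of 4 on day 1 (24.2%), miR-26a-5p and miR-101a-3p, and 1 of 4 on day 3 against day 1 (17.5%), while 0 of 4 were at least 2-fold higher (37.4%, 35.2% and 25.4%). With median-of-ratios factors the members' counts were the same, 4 of 4, 2 of 4 and 1 of 4 lower (24.8%, 25.9% and 19.4% of all miRNAs) and 0 of 4 higher (32.7%, 33.1% and 24.2%). On day 1, miR-26a-5p and miR-101a-3p were below day 0 under each scaling, whereas miR-26b-5p and miR-101b-3p were above it or below it according to the scaling.

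**Figure D3:**
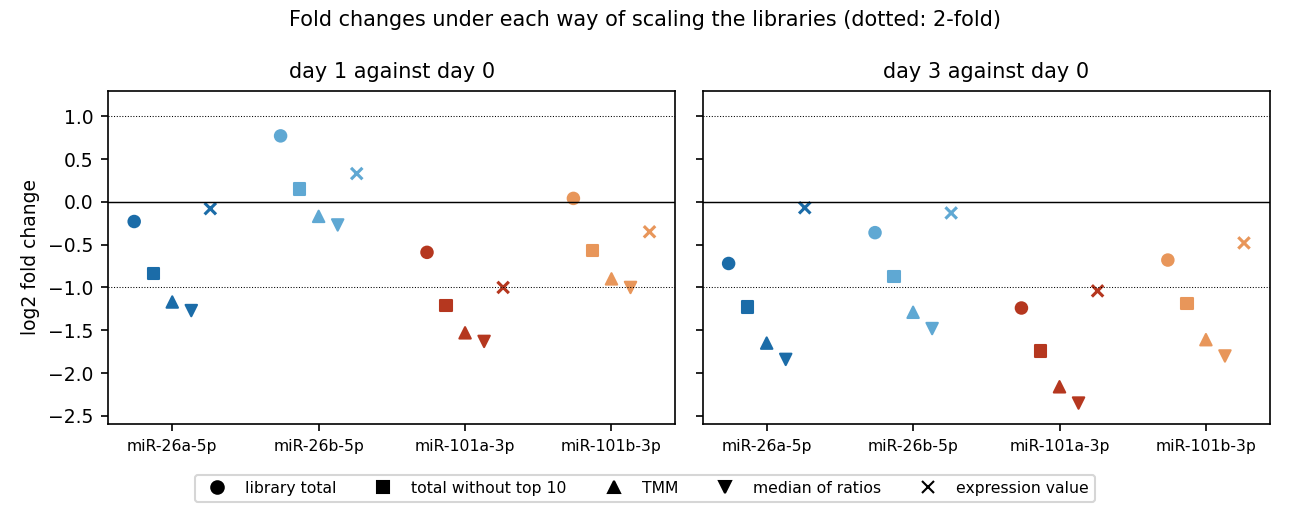
Log2 fold change of each member relative to day 0 on day 1 (left) and day 3 (right), with the libraries scaled to their totals (circles), to totals without the 10 most abundant miRNAs (squares), with TMM factors (triangles pointing up) or median-of-ratios factors (triangles pointing down), and from the deposited expression values (crosses). On day 3 all symbols lie below 0, from -0.07 to -2.35, and on day 1 the symbols of miR-26b-5p and miR-101b-3p lie on both sides of 0. The expression values were not scaled to their totals.

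Shares within a pair of miRNAs are free of the scaling. miR-26b-5p made up 4.03% (3.98 to 4.08) of the day 0 miR-26 reads, 7.73% (7.65 to 7.82) of those from day 1 and 5.10% (5.04 to 5.17) of those from day 3. Relative to miR-26a-5p, miR-26b-5p thus stood at 2.00 times its day 0 value on day 1 (1.96 to 2.03) and at 1.28 times on day 3 (1.26 to 1.31). From the deposited expression values the change of the ratio was 1.34 times on day 1 and 0.954 times on day 3, so the direction on day 3 was not kept. These values are compressed for abundant miRNAs, at 22.8% of the reads for miR-26a-5p on day 0 and 33.4% on day 1, beside 86.3% and 84.5% for miR-26b-5p.

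miR-101a-3p made up 41.5% of the day 0 miR-101 reads (38.0 to 45.0), 31.4% of those from day 1 (27.5 to 35.5) and 32.6% of those from day 3 (28.5 to 36.9). Relative to miR-101b-3p it stood at 0.644 times its day 0 value on day 1 (0.509 to 0.816) and at 0.681 times on day 3 (0.536 to 0.865). Between day 1 and day 3 no difference in this ratio was detectable at this depth (1.06 times, 0.808 to 1.38). In the reads of both families the balance between the paralogs on day 0 therefore differed from that in either injured library by more than counting error. For miR-26 on day 3 the deposited expression values went the other way (0.954 times).

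The opposite arms of the hairpins were much rarer, and miR-26b-3p differed in course from miR-26b-5p. miR-26b-3p had 29, 150 and 140 reads on days 0, 1 and 3, or 3.41 CPM (2.37 to 4.90), 23.4 CPM (19.9 to 27.4) and 14.3 CPM (12.1 to 16.9). Against day 0 its log2 fold change was 2.78 for day 1 (2.20 to 3.35) and 2.07 for day 3 (1.49 to 2.64), and it was also above day 0 with TMM factors (1.83 and 1.14). Its share of the reads of both miR-26b arms was 0.121% (0.0845 to 0.174), then 0.486% (0.414 to 0.569) and then 0.651% (0.552 to 0.768). Relative to miR-26b-5p, miR-26b-3p was thus 4.02 times its day 0 value on day 1 (2.70 to 5.98) and 5.40 times on day 3 (3.62 to 8.05), and 4.05 and 5.30 times in the deposited expression values.

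The opposite arms of miR-26a report on the loci separately, and both were low. miR-26a-2-3p had 193, 131 and 329 reads, or 22.7 CPM (19.7 to 26.1), 20.4 CPM (17.2 to 24.2) and 33.6 CPM (30.1 to 37.4). Relative to miR-26a-5p it was 1.05 times its day 0 value on day 1 (0.843 to 1.31) and 2.44 times on day 3 (2.04 to 2.92). In the deposited expression values these ratios were 0.731 and 1.81 times. For day 1 the interval from the reads included no change, so the reads gave no direction there. miR-26a-1-3p had 4, 5 and 29 reads, and made up 2.03% of the reads of both opposite arms on day 0 (0.792 to 5.10) and 8.10% on day 3 (5.70 to 11.4). On day 3 both arms were thus above their day 0 level in CPM while miR-26a-5p was below it, although for miR-26a-2-3p the value was below day 0 with TMM factors (log2 fold change -0.36).

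The hairpins of miR-26b and miR-26a-2 are shown to set these arms beside each other, with the 5p and 3p strands in capitals.
Mir26b: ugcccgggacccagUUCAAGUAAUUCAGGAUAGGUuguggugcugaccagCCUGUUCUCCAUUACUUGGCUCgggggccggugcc
Mir26a-2: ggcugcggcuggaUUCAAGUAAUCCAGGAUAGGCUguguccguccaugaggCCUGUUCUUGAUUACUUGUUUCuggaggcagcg

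**Figure D4:**
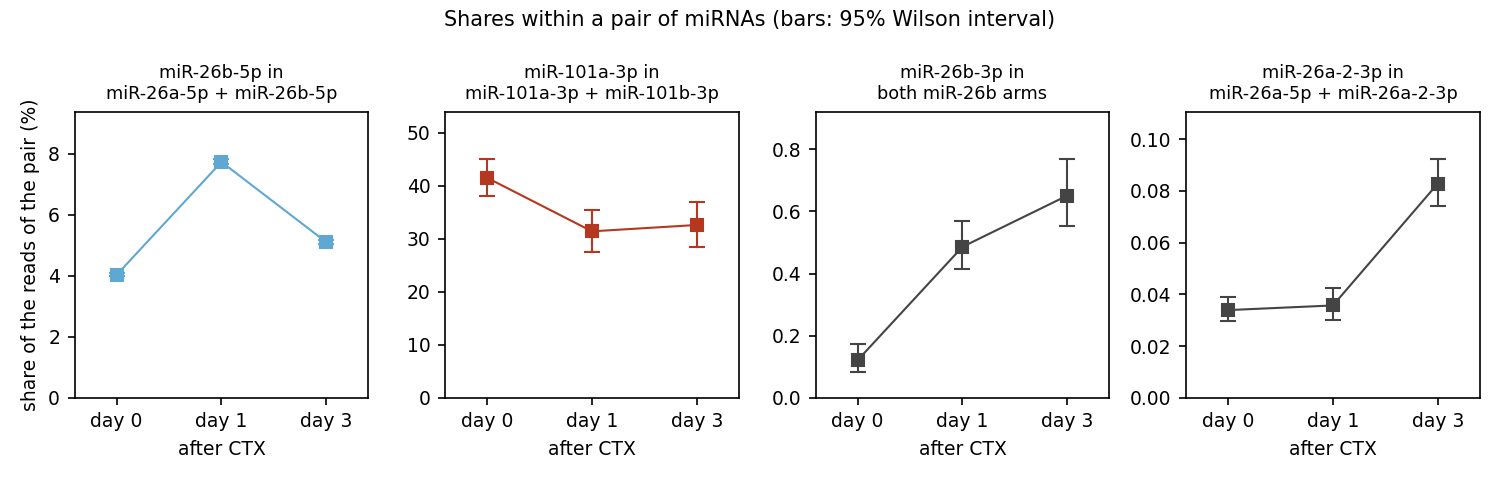
Share of miR-26b-5p in the miR-26 reads, of miR-101a-3p in the miR-101 reads, of miR-26b-3p in the reads of both miR-26b arms and of miR-26a-2-3p in the sum of miR-26a-5p and miR-26a-2-3p, in percent (axes from 0), in the 3 libraries with 95% Wilson intervals. The miR-26b-5p share was highest on day 1 (7.73%), the miR-101a-3p share highest on day 0 (41.5%), and the shares of both opposite arms highest on day 3.

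For miR-101 the opposite arms were at the limit of detection. miR-101a-5p had 4, 4 and 5 reads, and miR-101b-5p had 4 reads on day 0, 0 on day 1, which by the limit of 3 reads allows a level of up to 0.467 CPM, and 1 on day 3. miR-101c, whose sequence lies within that of miR-101a-3p, had 0, 1 and 1 reads. No fold change is given for these strands.

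Among the 953 listed miRNAs with a sequence, no other shared the seed of miR-26 in full. miR-144-3p, an erythroid miRNA, shares bases 2 to 7 with miR-101a-3p but not base 8. Its level was 42.9, 148 and 80.3 CPM in the order of the days. Its counting interval overlapped that of miR-101a-3p on day 0 (38.7 to 47.5 CPM) and lay above it on days 1 and 3. Its log2 fold change against day 0 was 1.79 for day 1 and 0.91 for day 3, where miR-101a-3p was at -0.59 and -1.24, but for day 3 it was -0.02 under TMM and -0.21 under median-of-ratios scaling. miR-582-5p, which shares bases 2 to 7 with miR-101b-3p, had 7, 19 and 45 reads.

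Other miRNAs reported to repress Ezh2 were taken from a list of 12 drawn from general knowledge. miR-217-5p was not listed under that name for these libraries. Of the other 11, 8 were at least 2-fold higher on day 1 (55.3% of all miRNAs) and 8 on day 3 (58.5%). None was at least 2-fold lower on either day. With TMM factors 3 were at least 2-fold higher on each day (35.2% and 37.4% of all miRNAs), and 0 on day 1 and 2 on day 3 were at least 2-fold lower (24.2% and 22.1%). The median log2 fold change of the 11 was 1.42 on day 1 and 1.64 on day 3, beside 1.28 and 1.47 for all miRNAs.

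Within this list, miR-214-3p, which is known to repress Ezh2 in differentiating myoblasts, was at 69.7, 566 and 556 CPM on days 0, 1 and 3 (log2 fold changes 3.02 and 2.99). miR-25-3p, of the miR-106b cluster, was at 69.9, 553 and 302 CPM. miR-138-5p was at 23.9, 63.9 and 69.5 CPM. These 3 were above day 0 on both days, the opposite of miR-101a-3p, which had a level of the same order on day 0.

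The let-7 strands of the list, miRNAs of differentiated cells, were highest on day 3. let-7c-5p was at 11273, 24541 and 35220 CPM on days 0, 1 and 3. let-7a-5p was at 10654, 17499 and 28914 CPM, and miR-98-5p of the same family at 493, 897 and 1637 CPM. On day 0 miR-26a-5p was 5.93 times as abundant in reads as let-7c-5p, and on day 3 it was 1.15 times as abundant. On day 1 the direction of most of them depended on the scaling. The log2 fold change of let-7a-5p, 0.72 with totals, was -0.23 under TMM and -0.33 under median-of-ratios scaling. That of miR-98-5p, 0.86, was -0.08 and -0.18. let-7e-5p (0.97) and let-7b-5p (1.03) were below day 0 under median-of-ratios scaling alone, at -0.07 and -0.02, and let-7c-5p was above day 0 under both.

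miR-30d-5p was at 2388, 6467 and 1635 CPM, highest on day 1. miR-124-3p, a neuronal miRNA, had 16, 73 and 14 reads.

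The miRNAs closest in pattern to each member were found by the distance between their pairs of log2 fold changes on day 1 and day 3, over these 3 libraries, among the 102 miRNAs with at least 1000 reads in every library. For miR-26a-5p they were miR-128-3p (distance 0.26), miR-151-5p (0.26) and miR-3068-5p (0.41). For miR-26b-5p they were miR-181c-5p (0.08), miR-143-3p (0.13) and miR-181a-5p (0.14). For miR-101a-3p they were miR-100-5p (0.08), miR-22-3p (0.20) and miR-434-3p (0.29). For miR-101b-3p they were miR-151-5p (0.11), miR-26a-5p (0.27) and miR-99a-5p (0.43). miR-26a-5p and miR-26b-5p were not among each other's closest 3, and neither were the miR-101 strands, which could not be since both had fewer than 1000 reads.

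The share of reads of several cell type markers differed between the libraries as well. Together the 6 myofiber miRNAs took up 27.3%, 9.13% and 27.7% of the reads on days 0, 1 and 3, with 4 of 6 at least 2-fold lower on day 1 (12.0% of all miRNAs). On day 3, 3 of 6 were at least 2-fold lower (10.0%) and 2 of 6 at least 2-fold higher (58.5%). Of the higher ones, miR-208b-3p had only 4 reads on day 0 and 10 on day 3 (log2 fold change 1.12, -0.55 to 2.79, and 0.19 with TMM factors). The other was miR-206-3p, a miRNA of regenerating fibers, which alone took up 18.0% of the day 3 reads and 1.24% of those from day 0. Without miR-206-3p the list took up 26.1%, 8.65% and 9.72%, a sum made up mostly of miR-1a-3p. The 5 leukocyte miRNAs held 0.501%, 1.89% and 0.668% of the reads, with 3 of 5 at least 2-fold higher on each day (55.3% and 58.5% of all miRNAs). Those were miR-223-3p, miR-142a-3p and miR-142a-5p, which were 79.9, 66.9 and 41.7 times their day 0 level on day 1 and 19.4, 32.4 and 25.9 times on day 3. The day 0 sum was mostly miR-150-5p, a lymphocyte miRNA (0.473% of the reads on day 0 and 0.320% on day 3). The 2 endothelial strands held 5.94%, 13.3% and 5.87%. The 5 stromal miRNAs held 3.69%, 6.75% and 3.16%, most of it miR-143-3p (3.43% on day 0 and 2.48% on day 3). Of these, 3 of 5 were at least 2-fold higher on each day, near the share over all miRNAs, on day 3 miR-199a-3p, miR-199a-5p and miR-214-3p. With TMM factors miR-214-3p alone was at least 2-fold higher (log2 fold changes 2.08 and 2.07). On day 3 miR-143-3p (-1.39) and miR-145a-5p (-1.22) were then at least 2-fold lower. Of the other lists, the 2 erythroid miRNAs held 0.714%, 2.53% and 1.26%, and the 5 epithelial miRNAs 0.00263%, 0.0202% and 0.0117%. Every marker had reads in every library. The part of these shifts in the levels of miR-26 and miR-101 was not tested. Set against miR-1a-3p, the main miRNA of mature fibers, miR-26a-5p was 2.70 times its day 0 ratio on day 1 (2.69 to 2.72) and 1.61 times on day 3 (1.60 to 1.62), and 1.13 and 1.01 times in the deposited expression values.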

How the data were processed

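RNAs of 18 to 30 nucleotides from TA muscle were sequenced on the BGISEQ platform, with 4 samples pooled per library and 1 library per time point. The authors aligned the reads to GRCm38.p6. The submitters' processing notes name HISAT and Bowtie2. The authors deposited for each mature miRNA a read count, without normalization, and an expression value, used here as a score since the sources used here do not give how it was made. The study names FPKM as its unit of expression, but the deposited value is a whole number that never exceeds the read count. Per the labels the 3′ adapters carried unique barcodes, and whether the expression value counts them is not given in the sources used here.

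Counts were divided by library totals (CPM). Log2 fold changes have 95% Wald intervals for Poisson counts, and CPM and shares 95% Wilson intervals. Counts under 3 reads were set to 3. No test was run, since with 1 library per time point a test would treat reads as replicates. The study's fold threshold of 2 was applied to miRNAs with at least 10 reads in either library. The intervals were tested on simulated reads, drawn independently from the observed shares. These held no PCR copies and no variation between mice or libraries, so only counting error was tested.

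The miRNAs named were the 4 members, their opposite arms, the Ezh2 list, marker lists and the 3 closest in pattern to each member. The members and lists were chosen with earlier results of these data known. Alternatives were TMM factors, median-of-ratios factors, totals without the 10 most abundant miRNAs, the expression value, 1 CPM added, fold thresholds of 1.5 and 4, and minimums of 1 or 100 reads. The 10 miRNAs left out of the totals were those with the most reads over all libraries together, miR-26a-5p among them. The expression value scaled to its total was added after seeing the data.

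Sequences came from RefSeq (GRCm38.p6), which matched 953 of the 1138 names, and 3′ UTRs and host genes from GENCODE M21 (GRCm38), with 1 3′ UTR, the longest, for each of 21020 genes. Factors came from edgeR 4.0.16 and DESeq2 1.42.0 under R 4.3.3. All else was computed in Python 3.11.15 with pandas 2.3.3 and numpy 2.4.6, and drawn with matplotlib 3.10.9.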

Additional observations from a re-analysis of the deposited data

How the results depend on the processing

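The counts of members past a 2-fold change moved with the scaling and the threshold. The number at least 2-fold lower on day 1, 0 with totals, was 2 under either TMM or median-of-ratios scaling, and 1 for totals without the 10 most abundant miRNAs, with the expression value scaled to its total or with a fold threshold of 1.5, under which 1 was also higher. On day 3 this number, 1 with totals, was 4 under either TMM or median-of-ratios scaling, 3 for totals without the 10 most abundant miRNAs or a fold threshold of 1.5, and 0 with a fold threshold of 4. Between day 1 and day 3 it was 1 with totals, 0 with the expression value, scaled to its total or not, or with a fold threshold of 4, and 3 with a fold threshold of 1.5. The other 45 counts of members stayed within 1.5 times. miR-26a-5p was lower on day 3 than on day 1 except in the unscaled expression value (log2 difference 0.02). With the expression value scaled to its total, the difference was -0.27. Over all miRNAs, those at least 2-fold higher on day 1 numbered 294 with totals, 187 under TMM and 176 under median-of-ratios scaling, and those at least 2-fold lower 64, 129 and 138. On day 3 these numbers were 333, 213 and 186, and 57, 126 and 141. Without the 10 most abundant miRNAs in the totals, 110 were lower on day 1 and 93 on day 3. A fold threshold of 4 left 180 higher and 10 lower on day 1, 203 and 18 on day 3, and, between day 1 and day 3, 67 and 34 of the 146 higher and 103 lower. A threshold of 1.5 gave 87 lower on day 3 and 158 lower between the injured libraries. A minimum of 100 reads, which tests fewer miRNAs, left 152 higher and 37 lower on day 1, 195 higher on day 3, and 87 higher and 52 lower between the injured libraries. The expression value gave 58 lower in that last comparison, and scaled to its total 107 lower on day 1. The share of miR-26a-5p in the miR-26 reads was 86.3%, 82.5% and 86.8% on days 0, 1 and 3 in the expression values, against 96.0%, 92.3% and 94.9% in the reads, and those of miR-101a-3p stayed within their intervals. The log2 fold change of let-7b-5p on day 1, 1.03, was -0.02 with median-of-ratios factors. No replicate could be left out, with 1 library per time point. No paired analysis was possible because each group is 1 library. Depth limits the miR-101 strands and all opposite arms, which had at most 447 reads in any library.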
